A study of Rattus norvegicus with 24 samples.

Results

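Collagen chain genes are described here across 24 rat brain libraries. They were taken as every row of the deposited count table whose gene name is Col, a type number, the letter a and a chain number, with nothing after it. This gave 42 of the 29539 genes in the table, of which 11 encode fibrillar chains, 6 encode chains of basement membrane collagens (types IV, XV and XVIII) and 25 encode other chains. The genes of the type IV chains Col4a4 and Col4a5 and of Col21a1 were not analysed here. RNA was taken from brain, selected for poly(A) and made into libraries with a directional kit, and the 24 samples carry 3 titles: 8 normal control, 8 vehicle and 8 SKF. The series text describes a rat model of traumatic brain injury made by a stab wound to the forebrain, and treatment with SKF-81297, an agonist of D1-like dopamine receptors that was injected into the peritoneum each day for 3 days, with the first dose 1 h after injury. That the vehicle group was wounded is read from this text; the sample labels give no wound, dose, strain, sex, age, brain region or time of collection, and do not say that each sample came from its own animal. If samples share animals, the p-values measure only the spread between samples, which may be technical.

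Collagens are proteins of 3 chains wound into a triple helix, secreted as procollagens and built into the extracellular matrix. Fibrillar collagens (types I, II, III, V, XI, XXIV and XXVII) form or nucleate fibrils, type IV collagen forms the sheet-like network of basement membranes, and the remaining types bind fibril surfaces, form microfilaments, anchor epithelia or stay in the cell membrane. In the brain, collagen is known mainly from the basement membranes of blood vessels and from the meninges, and fibroblasts of these sites make the fibrous scar that follows a penetrating wound. In these bulk samples, fewer cells of a type and less RNA per cell cannot be told apart.

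Promoter windows for 33 of the 42 genes were matched by symbol in RefSeq (build GRCr8), each running from 250 bases before to 50 bases after the annotated start. The libraries were aligned to another build, so these windows serve for sequence only. Col4a1 and Col4a2, which encode the chains of the most common type IV collagen, are transcribed away from each other from starts with 76 bases between them, and 176 bases of their windows are the same DNA. A single window, chr16:84885347-84885646 on the plus strand, therefore holds the start of Col4a1 at its position 251 and that of Col4a2 at its position 174, the second on the opposite strand. Col5a1 (chr3:31606630-31606929, plus strand) and Col5a2 (chr9:55090102-55090401, minus strand) are shown because they encode partner chains of 1 collagen whose level relative to each other differed between groups, and Col11a2 (chr20:4817599-4817898, minus strand) because it had the largest fall of the members in vehicle against normal control. Capitals mark matches to 3 motifs searched on both strands, the GC box (GGGCGG), the CCAAT box (CCAAT) and the TATA box (TATAAA); matches were allowed to overlap.
Col4a1: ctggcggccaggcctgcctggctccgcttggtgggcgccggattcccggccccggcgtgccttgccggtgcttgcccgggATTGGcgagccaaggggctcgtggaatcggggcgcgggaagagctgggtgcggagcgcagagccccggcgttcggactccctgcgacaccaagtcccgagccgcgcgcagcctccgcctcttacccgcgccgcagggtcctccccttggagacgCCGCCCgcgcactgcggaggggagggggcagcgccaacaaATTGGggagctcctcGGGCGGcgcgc
Col5a1: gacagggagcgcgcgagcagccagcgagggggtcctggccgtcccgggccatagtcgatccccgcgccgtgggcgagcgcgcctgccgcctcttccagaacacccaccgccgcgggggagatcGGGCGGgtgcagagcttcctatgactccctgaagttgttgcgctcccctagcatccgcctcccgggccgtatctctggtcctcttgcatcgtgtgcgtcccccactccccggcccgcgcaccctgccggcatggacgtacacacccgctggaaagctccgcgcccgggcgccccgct
Col5a2: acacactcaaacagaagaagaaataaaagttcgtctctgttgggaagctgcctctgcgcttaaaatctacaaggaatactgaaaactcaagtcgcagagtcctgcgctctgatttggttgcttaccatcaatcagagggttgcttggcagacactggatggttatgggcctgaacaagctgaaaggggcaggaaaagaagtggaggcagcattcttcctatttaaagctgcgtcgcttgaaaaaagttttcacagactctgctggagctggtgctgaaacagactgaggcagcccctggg
Col11a2: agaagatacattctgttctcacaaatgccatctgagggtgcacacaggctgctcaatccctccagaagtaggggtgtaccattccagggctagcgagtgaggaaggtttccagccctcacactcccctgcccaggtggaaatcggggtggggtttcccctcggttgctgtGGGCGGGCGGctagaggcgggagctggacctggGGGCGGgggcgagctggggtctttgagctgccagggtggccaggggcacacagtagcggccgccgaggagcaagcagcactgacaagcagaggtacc

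The Col4a1 window is 75.0% G and C and holds 2 GC boxes and 2 CCAAT boxes. The window of Col4a2, which shares 176 bases with it, is 73.7% G and C and holds 2 GC boxes and 1 CCAAT box. The Col5a1 window is 72.0% G and C with 1 GC box, the Col5a2 window is 47.7% G and C with none of the 3 motifs, and the Col11a2 window is 62.7% G and C with 3 GC boxes. A GC box was present in 18 of the 33 member genes with a window (54.5%) against 33.1% of all 33469 windows of this length, a CCAAT box in 11 (33.3%, against 37.5%) and a TATA box in 4 (12.1%, against 14.2%). Member genes were counted once each over all their windows (36 in total), whereas the share of all was taken over single windows. The 2 GC boxes of Col4a1 and of Col4a2 lie in the DNA that their windows share, so 1 stretch counts for 2 genes. These matches describe letters and were not compared with binding data.

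Total counts ran from 8911339 to 12383368 per library, and the correlation of log2 CPM between libraries of a group was at least 0.95. A pair of normal control libraries stood apart in markers that bear on collagen. In normal control 6 the summed level of 6 choroid plexus markers was 11.0 TPM (transcripts scaled to gene length and to the same total in each library), whereas over all normal controls it had a median of 5213 and reached 12608, and this library also had the lowest sum of fibroblast and meninges markers. In normal control 4 the sum of 6 skeletal muscle markers was 2962 TPM, against at most 42.8 in the other normal controls. Where leaving out either library changed a call of a member, this is stated with the gene.

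Vehicle samples were compared with normal controls to see which chains differed after the wound. Of the 42 genes, 39 passed the filter on low counts, and Col6a4, Col28a1 and Col10a1, with 1 to 18 counts in any library, did not. Among the 39, 17 were higher in vehicle and 9 were lower at an adjusted p under 0.05; over all genes tested in this comparison, 54.0% were called, 26.9% higher and 27.1% lower. The median log2 fold change was 0.25 over the 39 members and -0.01 over all genes. Increases of at least 2-fold were called in 9 members (7.69% of all genes) and decreases of that size in 4 (3.29%). The 9 include Col17a1, which passed the filter through the vehicle and SKF libraries where it is higher. The 4 include Col22a1, whose call rests on 2 normal control libraries. The TPM of all 8 vehicle libraries lay above that of all 8 normal controls for 11 members (16.7% of all genes) and below it for 2 (3.30%). On the TPM scale, where the median of all genes moved by 0.11, the split was 19 higher and 6 lower of 38 members, beside 5476 higher and 2408 lower of 15280 genes.

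**Figure D1:**
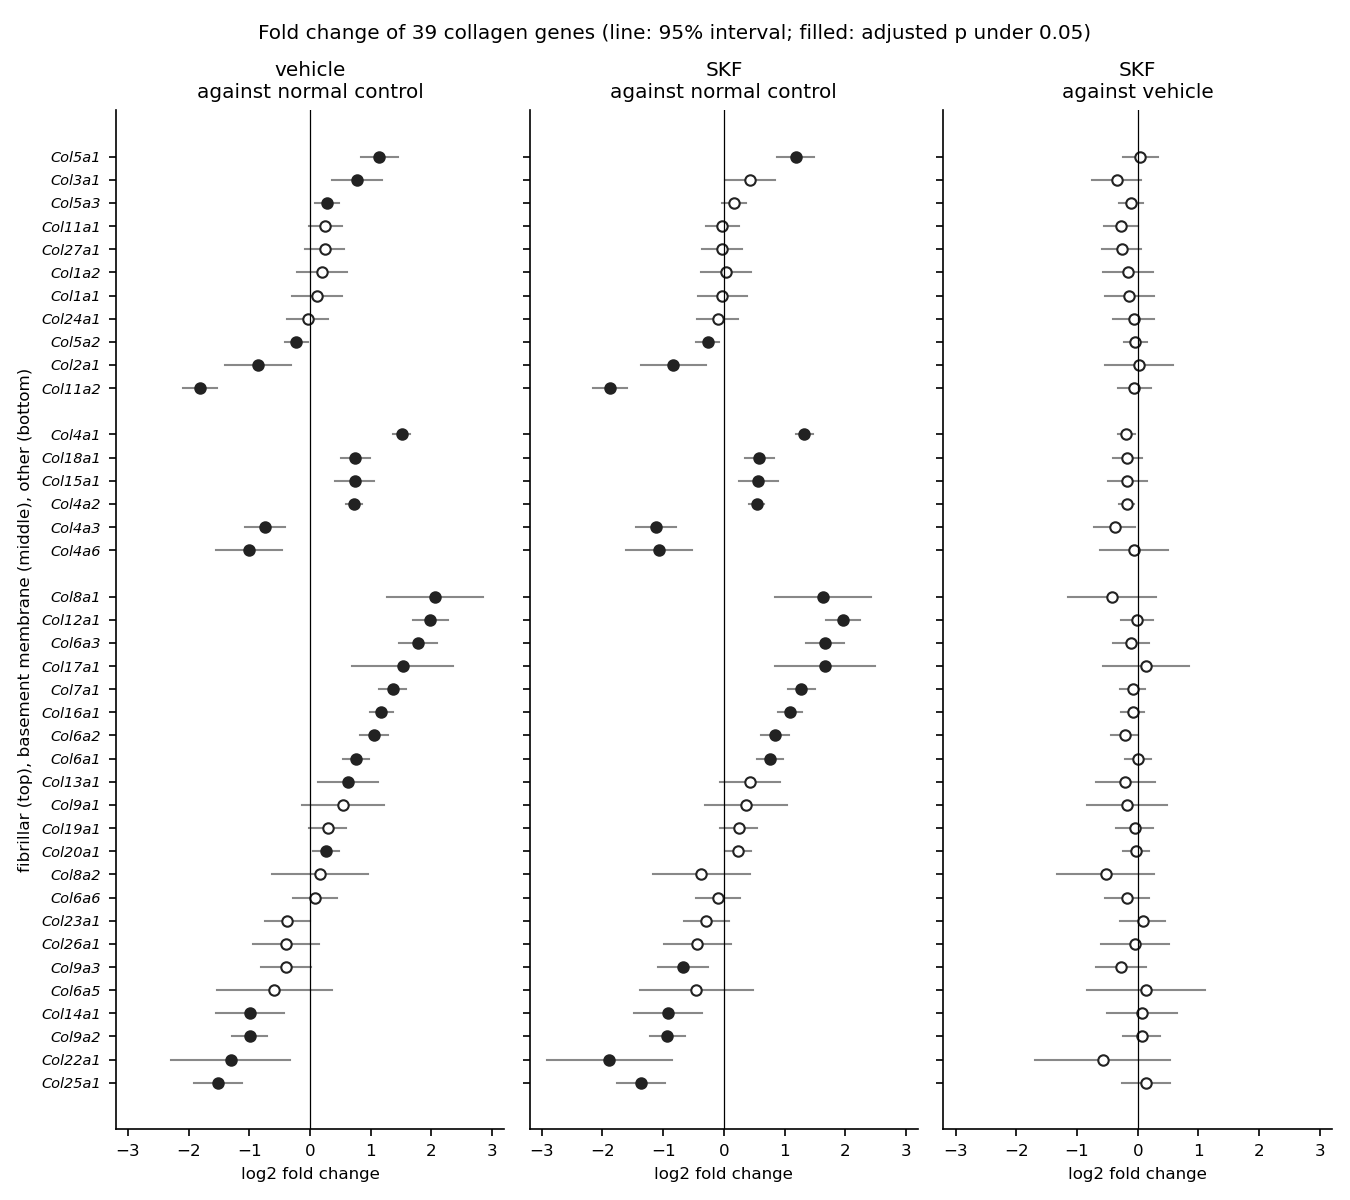
Log2 fold change of each of the 39 tested collagen genes (x axis) in the 3 comparisons, with fibrillar chains at the top, basement membrane chains in the middle and others at the bottom; points are estimates, lines 95% intervals and filled points an adjusted p under 0.05. Vehicle against normal control has 26 filled points, SKF against normal control 23 and SKF against vehicle none.

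Fibrillar chains moved in both directions: of 11 tested, 3 were higher in vehicle (Col3a1, Col5a1 and Col5a3), 3 were lower (Col2a1, Col5a2 and Col11a2) and 5 did not pass, with a class median of 0.19. The 6 called are 54.5% of the class, near the 54.0% of all genes. The chains of type I collagen, the main fibril former of scar, skin and bone, were among the 5. Col1a1 was at 9.37, 24.3 and 47.0 TPM (lowest, median and highest library) in normal controls, at 23.9, 25.5 and 37.4 in vehicle and at 21.8, 23.8 and 32.5 in SKF. Col1a2 was at 9.95, 28.1 and 50.2 TPM in normal controls, at 30.7, 35.4 and 44.9 in vehicle and at 24.6, 32.5 and 39.3 in SKF. For both genes the normal controls spanned the whole range of the vehicle and SKF groups, with normal control 6 lowest and normal control 4 highest. The log2 fold change in vehicle was 0.11 ± 0.20 (SE; adjusted p = 0.653) for Col1a1 and 0.19 ± 0.20 (adjusted p = 0.429) for Col1a2. Without normal control 4 the estimates were 0.32 for Col1a1 (adjusted p = 0.101) and 0.34 for Col1a2 (adjusted p = 0.130), and without normal control 6 they were 0.001 (adjusted p = 0.998) and 0.07 (adjusted p = 0.730).

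Col3a1, the single chain of type III collagen, which mixes with type I in pliable fibrils, was at 7.47, 19.7 and 32.0 TPM in normal controls and at 28.4, 38.5 and 43.8 in vehicle. The groups overlapped only at the top of the normal controls, and the gene rose by 0.77 ± 0.20 on the log2 scale (adjusted p = 0.00214); without normal control 6 the rise was 0.65. In SKF libraries it was at 23.1, 27.3 and 48.0 TPM, the highest value being SKF 1. The level of Col3a1 relative to Col1a1 had a median of 0.806 in normal controls, 1.39 in vehicle and 1.14 in SKF.

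The 3 chains of type V collagen, which starts fibrils and sets their width, did not move together. Col5a1 was at 5.99, 10.6 and 12.9 TPM in normal controls, at 15.7, 22.0 and 34.8 in vehicle and at 17.9, 24.7 and 30.2 in SKF. All vehicle libraries lay above all normal controls, and the gene rose by 1.14 ± 0.15 (adjusted p = 4.9e-07). Its partner Col5a2 was at 12.8, 17.1 and 21.0 TPM in normal controls, at 12.8, 15.7 and 17.6 in vehicle and at 11.3, 15.3 and 17.7 in SKF. These ranges overlapped almost wholly; the gene fell by 0.23 ± 0.09 (adjusted p = 0.0392), and the call was lost without normal control 1, 2, 4, 5 or 7 or vehicle 1, 2, 3, 4 or 7 (adjusted p up to 0.0983), and the estimate from TPM was -0.08 (adjusted p = 0.522). The ratio of Col5a1 to Col5a2 in TPM ran from 0.436 to 0.801 in normal controls, from 1.01 to 2.02 in vehicle and from 1.11 to 2.68 in SKF, with no overlap between normal controls and either other group. Col5a3, the third chain, rose by 0.28 ± 0.10 (adjusted p = 0.0156), from a median of 27.3 to 34.3 TPM.

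Col11a2, a chain of the type XI collagen that is best known from cartilage, had the highest median level of all 42 genes in normal controls. It was at 113, 122 and 153 TPM there, at 22.8, 37.3 and 55.9 in vehicle and at 31.7, 36.1 and 45.8 in SKF. All vehicle libraries lay far below all normal controls, and the gene fell by 1.82 ± 0.14 (adjusted p = 3.55e-11). Its partner Col11a1 was at 8.60, 11.4 and 15.8 TPM in normal controls, at 10.7, 16.3 and 19.0 in vehicle and at 8.70, 12.9 and 15.1 in SKF; its estimate was 0.25 ± 0.13 (adjusted p = 0.115), and it was called higher on the TPM scale (0.35, adjusted p = 0.0232), without normal control 4 (0.32, adjusted p = 0.0486) and without vehicle 1 (0.31, adjusted p = 0.0416). Col2a1, the cartilage fibril chain, fell by 0.86 ± 0.27 (adjusted p = 0.00791) from a median of 3.23 to 1.94 TPM, a call lost on the TPM scale (-0.46, adjusted p = 0.0549). Of 8 bone and cartilage markers 3 were tested: Runx2 (0.94) was higher, and Acan (-0.77) and Sp7 (-1.17) were lower, with sums over the 8 of 7.38 to 13.0 TPM in normal controls and 6.66 to 9.66 in vehicle, where Bglap was listed at 0 throughout; their part in the cartilage chains was not tested. Col24a1 and Col27a1 did not pass (adjusted p = 0.853 and 0.207).

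All 6 basement membrane genes passed the threshold, 4 of them higher and 2 lower, with a median log2 fold change of 0.73. Of all genes 54.0% passed, 26.9% higher and 27.1% lower. Col4a1 and Col4a2 both rose. Col4a1 was at 26.8, 30.1 and 36.7 TPM in normal controls, at 74.9, 94.9 and 111 in vehicle and at 67.9, 80.0 and 95.9 in SKF. Col4a2 was at 31.8, 37.0 and 42.6 TPM in normal controls, at 53.3, 69.6 and 71.1 in vehicle and at 49.6, 57.0 and 69.2 in SKF. Neither gene had any overlap between normal controls and the vehicle or SKF groups, and vehicle 5 was the lowest vehicle library for both. Col4a1 rose by 1.51 ± 0.07 (adjusted p = 6.76e-16) and Col4a2 by 0.73 ± 0.06 (adjusted p = 1.23e-10), with 95% intervals of 1.37 to 1.65 and 0.60 to 0.85 that do not meet. The ratio of Col4a1 to Col4a2 in TPM was 0.723 to 0.983 in normal controls, 1.30 to 1.59 in vehicle and 1.35 to 1.53 in SKF, so Col4a1 was the lower of the pair in every normal control and the higher in every other library.

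The other type IV chains in the table moved the opposite way. Col4a3, a chain of the type IV network best known from kidney and lung, was at 3.18, 5.41 and 7.80 TPM in normal controls, at 2.30, 3.69 and 4.62 in vehicle and at 1.98, 2.71 and 3.41 in SKF, and fell by 0.74 ± 0.16 (adjusted p = 0.000274). Col4a6 was at 0.703, 1.98 and 2.37 TPM in normal controls, at 0.504, 0.967 and 1.48 in vehicle and at 0.303, 1.05 and 1.42 in SKF, and fell by 1.01 ± 0.27 (adjusted p = 0.00214). For both chains the groups overlapped. Type XV and XVIII collagens sit in basement membranes with heparan or chondroitin sulfate chains attached, and the end of type XVIII is released as endostatin. Col15a1 was at 4.26, 6.56 and 10.2 TPM in normal controls, at 9.75, 12.2 and 17.2 in vehicle and at 8.21, 11.5 and 13.5 in SKF, and rose by 0.74 ± 0.16 (adjusted p = 0.00027). Col18a1 was at 6.62, 9.61 and 12.1 TPM in normal controls, at 14.0, 18.0 and 22.7 in vehicle and at 10.7, 14.9 and 19.4 in SKF. It rose by 0.75 ± 0.12 (adjusted p = 5.07e-06), with every vehicle library above every normal control.

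**Figure D2:**
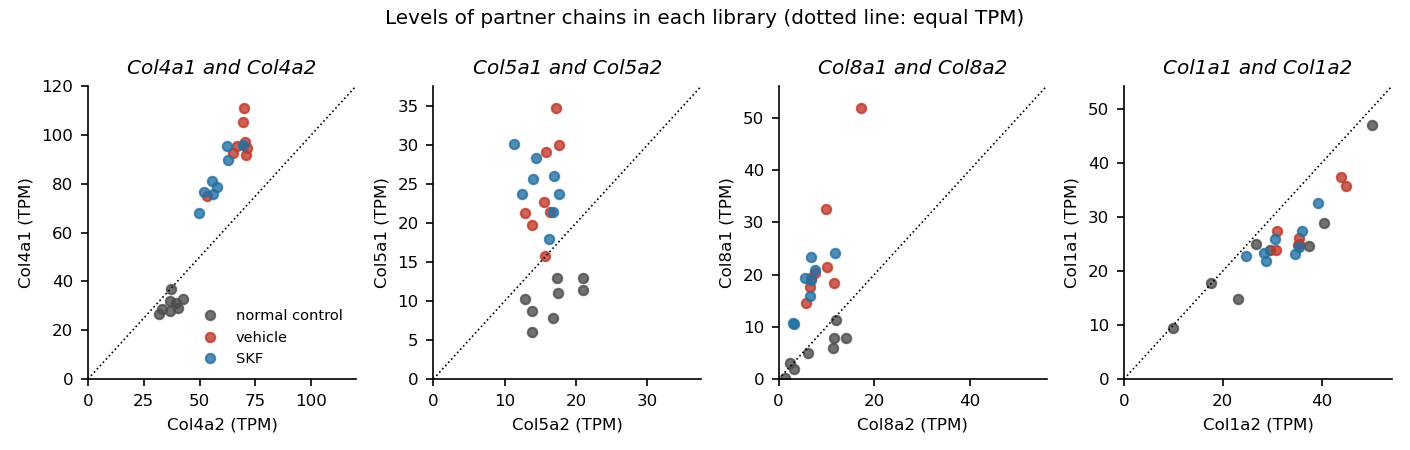
TPM of partner chains plotted against each other, 1 point per library, grey for normal control, red for vehicle and blue for SKF; the dotted line marks equal levels. Col4a1 and Col5a1 lie below the line in normal controls and above it in all vehicle and SKF libraries, Col8a1 lies above it in those libraries, and Col1a1 keeps to the same band against Col1a2 in all groups.

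Vascular markers were measured beside the basement membrane chains. Over all genes tested in this comparison, 54.0% were called, 26.9% higher and 27.1% lower. Of 7 tested endothelial markers 3 were higher in vehicle (Pecam1 0.65, Cdh5 0.64 and Esam 0.64) and 1 was lower, a share near that of all genes. The summed level of the endothelial markers was 116 to 154 TPM in normal controls and 147 to 192 in vehicle. Of 6 pericyte markers 3 were higher (led by Anpep, 2.84, and Kcnj8, 0.53) and 1 was lower (Rgs5, -0.84), with sums of 157 to 183 TPM and 133 to 196 TPM. Of 5 smooth muscle markers 2 were higher (Tagln 2.93 and Cnn1 1.55) and 2 lower (among them Myh11, -0.45), with sums of 72.4 to 194 TPM in normal controls and 289 to 957 TPM in vehicle. None of these markers was at 0 in all libraries of a group, and their part in the collagen result was not tested.

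Type VI collagen, a heterotrimer that forms beaded microfilaments around cells, was higher in all 3 of its classical chains. Col6a1 was at 27.1, 32.4 and 41.7 TPM in normal controls, at 47.4, 61.0 and 81.2 in vehicle and at 46.6, 59.5 and 80.0 in SKF. Col6a2 was at 8.21, 11.8 and 14.3 TPM in normal controls, at 20.8, 24.9 and 36.4 in vehicle and at 19.4, 22.3 and 26.9 in SKF. Col6a3 was at 1.10, 2.12 and 3.17 TPM in normal controls, at 6.52, 7.90 and 11.4 in vehicle and at 5.82, 7.01 and 10.4 in SKF. Every vehicle library lay above every normal control for each of the 3. The rises were 0.76 ± 0.11 for Col6a1 (adjusted p = 1.17e-06), 1.06 ± 0.11 for Col6a2 (adjusted p = 1.22e-08) and 1.78 ± 0.15 for Col6a3 (adjusted p = 3.26e-10). Col6a3 stayed the scarcest of the 3 per length, at a median of 0.0686 times Col6a1 in normal controls and 0.133 times in vehicle. The additional chains Col6a5 and Col6a6 were at 1.14 TPM or less in every library and did not pass (adjusted p = 0.291 and 0.738).

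Chains of the fibril-associated collagens, which coat fibrils without forming them, were 3 higher, 3 lower and 3 not called among 9 tested, with a median of 0.26. Over all genes, 26.9% were higher and 27.1% lower. The called chains include Col20a1 (higher) and Col22a1 (lower), whose calls were lost without single libraries. Col12a1, of the type XII collagen found in dense connective tissue under tension, was at 2.48, 3.38 and 4.79 TPM in normal controls, at 10.6, 14.9 and 20.2 in vehicle and at 9.42, 14.1 and 20.5 in SKF, and rose by 1.98 ± 0.14 (adjusted p = 6.41e-12). Col16a1 was at 22.2, 29.7 and 35.3 TPM in normal controls, at 51.8, 72.5 and 89.5 in vehicle and at 53.9, 64.5 and 86.2 in SKF, and rose by 1.17 ± 0.09 (adjusted p = 3.55e-11). For both genes every vehicle and SKF library exceeded every normal control. Col20a1 rose by 0.26 ± 0.11 (adjusted p = 0.0394); the call was lost without normal control 1, 3, 5, 6 or 7 or vehicle 1 or 6, and without vehicle 1 the estimate was 0.17 (adjusted p = 0.137). Among the chains that fell, Col9a2 of cartilage type IX collagen dropped by 1.00 ± 0.14 (adjusted p = 1.45e-06), from a median of 15.7 to 8.51 TPM, and Col14a1 by 0.99 ± 0.27 (adjusted p = 0.0032), from 1.16 to 0.823 TPM. Col9a1, Col9a3 and Col19a1 did not pass (adjusted p = 0.168, 0.0965 and 0.101); Col9a3 was called lower without normal control 6 (-0.50, adjusted p = 0.0195) or vehicle 2 (-0.51, adjusted p = 0.0344), and Col19a1 higher without vehicle 2 or 7 (0.36, adjusted p = 0.0377 and 0.0408).

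Col22a1, a chain placed at muscle-tendon junctions, was called lower in vehicle at -1.31 ± 0.48 (adjusted p = 0.0228), and the call rests on 2 libraries. Normal controls 4 and 5 had 58 and 72 counts of it, and the other normal controls 5 to 11. Vehicle libraries had 4 to 14 counts and SKF libraries 2 to 11. In TPM it was at 0.204, 0.314 and 2.83 in normal controls, at 0.190, 0.352 and 0.537 in vehicle and at 0.0792, 0.228 and 0.408 in SKF. Without normal control 4 the estimate was -0.97 (adjusted p = 0.0844), and without normal control 5 it was -0.75 (adjusted p = 0.146). Of 4 skeletal muscle markers tested, 3 were called lower in vehicle (Myh4, Acta1 and Tnnt3), beside 27.1% of all genes. Sums were 25.1 to 2962 TPM in normal controls, of which normal control 4 held the highest, and 26.6 to 61.0 TPM in vehicle. The part of these markers in the result for Col22a1 was not tested.

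Transmembrane collagens keep 1 end in the cell membrane and can be shed. Col25a1, a chain known from neurons and from amyloid plaques, was at 26.4, 43.4 and 56.6 TPM in normal controls, at 8.93, 17.4 and 22.1 in vehicle and at 12.6, 14.9 and 27.5 in SKF. No vehicle library reached a normal control, and it fell by 1.51 ± 0.19 (adjusted p = 5.17e-07). Of 8 neuronal markers none was higher and 5 were lower, beside 26.9% of all genes higher and 27.1% lower. The lower ones were led by Tubb3 (-0.55), Syt1 (-0.41) and Snap25 (-0.31). Sums over the neuronal markers were 4262 to 5577 TPM in normal controls and 2998 to 5266 in vehicle. Whether these markers bear on Col25a1 was not tested. Col17a1, the hemidesmosome collagen of skin, was barely detected, at 0.0389, 0.103 and 0.369 TPM in normal controls (1 to 9 counts), at 0.140, 0.424 and 1.04 in vehicle (3 to 21 counts) and at 0.303, 0.551 and 0.681 in SKF (8 to 16 counts). It rose by 1.53 ± 0.41 (adjusted p = 0.0024), with overlapping groups and levels at which single reads matter. Its counts in normal controls are so low that it passed the filter through the vehicle and SKF libraries. With only the 2 groups compared in the fit, Col17a1 fell under the filter on low counts. It was then not tested in vehicle or in SKF against normal control. Its place among the 17 higher members thus rests on fits that hold all 3 groups. Col13a1 rose by 0.63 ± 0.24 (adjusted p = 0.0288), from a median of 4.62 to 8.58 TPM. The call was lost without normal control 1, 6, 7 or 8 or vehicle 3 or 5 (adjusted p up to 0.0884). It was also lost with only the 2 groups compared in the fit. Col23a1 did not pass (-0.38, adjusted p = 0.0821), although it did without normal control 6 (-0.46, adjusted p = 0.0244).

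Col8a1 and Col8a2 encode the short chains of type VIII collagen, which forms a lattice under endothelium and in the eye. Col8a1 was at 0.277, 5.48 and 11.3 TPM in normal controls, at 14.6, 19.8 and 51.9 in vehicle and at 10.4, 19.2 and 24.0 in SKF. Its rise of 2.06 ± 0.38 (adjusted p = 8.37e-05) was the largest among the members; normal control 6 held the lowest value and vehicle 2 the highest, and the estimate ran from 1.80 to 2.29 when single libraries were left out. Col8a2 was at 1.27, 8.80 and 14.1 TPM in normal controls and at 5.65, 8.75 and 17.1 in vehicle and did not pass (0.16 ± 0.38, adjusted p = 0.746). The same 2 libraries held the lowest and the highest sum of the choroid plexus markers, 11.0 TPM in normal control 6 and 13860 in vehicle 2, and none of these 6 markers passed (Aqp1 1.04, Clic6 0.38 and Kcnj13 -0.26 had the smallest p); their part in the type VIII values was not tested. Col7a1, the anchoring fibril chain of skin, was at 1.21, 1.81 and 2.12 TPM in normal controls, at 3.73, 4.91 and 5.57 in vehicle and at 3.90, 4.57 and 5.34 in SKF. It rose by 1.36 ± 0.11 (adjusted p = 2.38e-11), with no overlap. Col26a1 did not pass (adjusted p = 0.221).

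**Figure D3:**
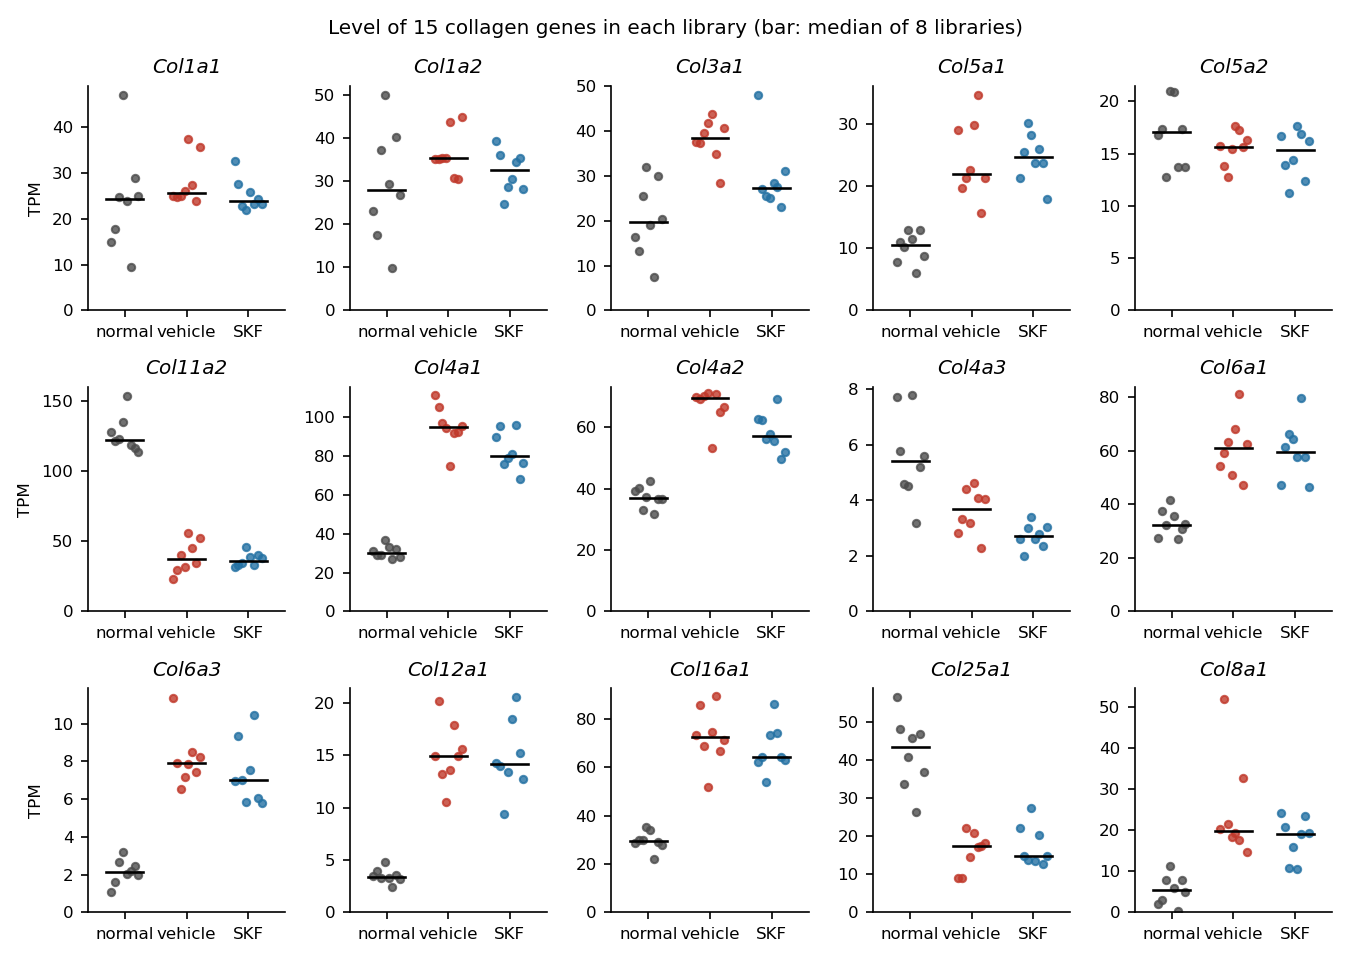
TPM of 15 collagen genes in each library, with normal control in grey, vehicle in red, SKF in blue and a bar at each group's median; each panel has its own axis from 0. The type I chains overlap across groups, Col4a1, Col6a3, Col12a1 and Col16a1 separate normal controls from both other groups, and Col11a2 and Col25a1 are highest in normal controls.

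Ranked by median TPM, the leading genes of normal controls were Col11a2 (122), Col9a3 (54.7), Col25a1 (43.4), Col4a2 (37.0) and Col6a1 (32.4). In vehicle they were Col4a1 (94.9), Col16a1 (72.5), Col4a2 (69.6), Col6a1 (61.0) and Col9a3 (43.9), and in SKF Col4a1 (80.0), Col16a1 (64.5), Col6a1 (59.5), Col4a2 (57.0) and Col9a3 (37.4). The ranges of Col9a3, Col25a1, Col4a2, Col6a1, Col4a1, Col16a1 and Col27a1, ranked 2 to 8 in normal controls, overlapped there. By these ranges their order is not beyond the spread between libraries. Within a library an order can still hold, as Col4a1 was below Col4a2 in every normal control. Col11a2 dropped to rank 8 in vehicle, and Col4a1 moved from rank 6 to 1.

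Summed over the 42 genes, collagen RNA was at 450, 632 and 796 TPM (lowest, median and highest) in normal controls, 727, 809 and 885 in vehicle and 642, 718 and 806 in SKF, with overlap between groups. The 6 basement membrane genes summed to 76.7, 93.7 and 106 TPM in normal controls, to 161, 200.2 and 211 in vehicle and to 144, 166 and 201 in SKF, and here both other groups lay above all normal controls. The fibrillar genes summed to 225, 295 and 395 TPM in normal controls and to 225, 271 and 318 in vehicle; without Col11a2 the same sums were 107, 175 and 260 and 191, 240 and 269. In shares of all collagen RNA, fibrillar chains had a median of 47.4% in normal controls, 34.7% in vehicle and 34.5% in SKF, and basement membrane chains 14.4%, 25.0% and 23.6%. Neither share overlapped between normal controls and vehicle: fibrillar chains ran from 45.4% to 50.1% and from 29.5% to 38.2%, and basement membrane chains from 12.2% to 17.0% and from 19.3% to 26.9%. Without Col11a2 in class or total, the fibrillar share ran from 31.4% to 39.4% in normal controls and from 27.0% to 33.7% in vehicle. The basement membrane share then ran from 15.0% to 23.1% and from 20.7% to 28.1%, so that both shares overlapped. Median fibrillar shares were then 33.8% in normal controls and 31.9% in vehicle. Median basement membrane shares were 18.0% and 26.5%, and so stayed apart although the ranges met. Sums and shares are given as descriptions, with no test.

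**Figure D4:**
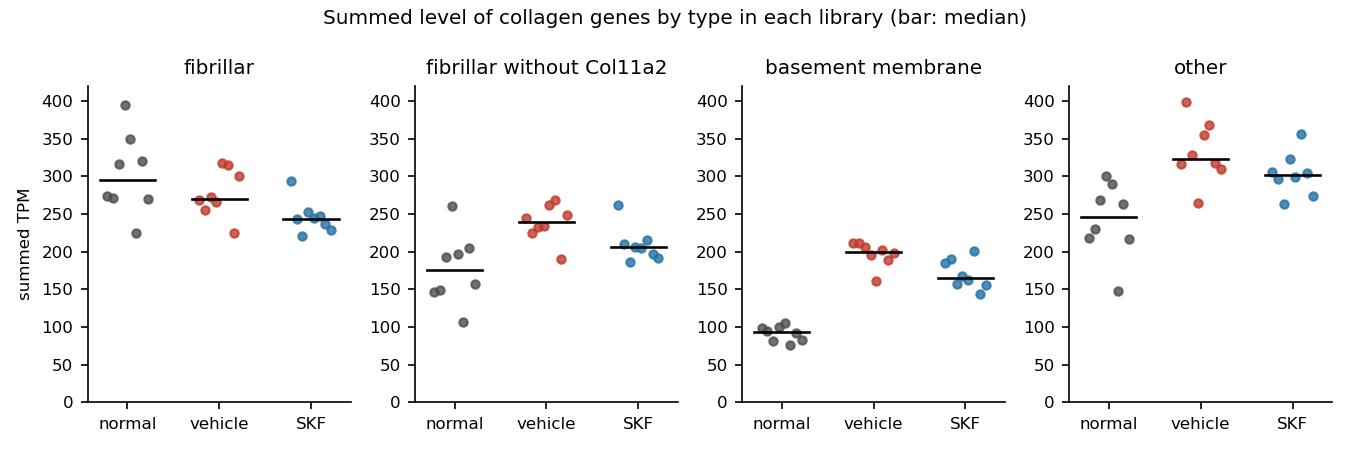
Summed TPM of collagen genes by type, 1 point per library, with a bar at the median of 8 libraries; the second panel leaves Col11a2 out of the fibrillar sum. Basement membrane sums of 76.7 to 106 TPM in normal controls rise to 161 to 211 in vehicle with no overlap, whereas fibrillar sums overlap.

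SKF was compared with vehicle to see whether the agonist went with a different collagen response. None of the 39 genes passed, and none of the 14421 genes did in the whole table (0%); the lowest adjusted p among the members was 0.838, and DESeq2 called 6 genes in all, 0 of them collagens. At an unadjusted p under 0.05 there were 4 members, all lower in SKF, beside 4.96% of all genes in either direction and 2.82% lower. The 95% interval lay within 1.5-fold either way for 25 of the 39 genes and reached past 1.5-fold for 14, so the data do not bound those 14 within that size. Estimates ran from -0.58 to 0.14; 30 of the 39 were below 0, against 49.5% of all genes, and the median was -0.11 against 0.0012. Chains of 1 tissue share cells and libraries, so the 30 are not independent and carry no test.

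The 5 members with the smallest p, of which the first 4 had an unadjusted p under 0.05, were chains of types IV, XI and VI. Col4a2, with median levels of 69.6 TPM in vehicle and 57.0 in SKF, had an estimate of -0.18 ± 0.06 (adjusted p = 0.838), and no SKF library reached the median of vehicle. Col4a1, at 94.9 and 80.0 TPM, had -0.19 ± 0.07 (adjusted p = 0.889), and 6 SKF libraries were under the median of vehicle. Both intervals, -0.31 to -0.06 and -0.33 to -0.05, bound the difference well inside 1.5-fold. Without vehicle 5, the lowest vehicle library for both genes, the Col4a1 estimate was -0.23 (adjusted p = 0.436). Col4a3 had -0.38 ± 0.16 (adjusted p = 0.937) and Col11a1 -0.28 ± 0.13 (adjusted p = 0.937), in each case with every SKF library under the vehicle median. Col6a2 had -0.21 ± 0.11 (adjusted p = 0.937).

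Of the 6 basement membrane genes all 6 had estimates below 0, with a median of -0.18, as did 9 of 11 fibrillar and 15 of 22 other genes. The type I chains were at -0.14 (interval -0.55 to 0.27) for Col1a1 and -0.16 (-0.57 to 0.25) for Col1a2, and Col3a1 was at -0.34 (-0.75 to 0.06). For Col3a1, 7 SKF libraries lay between 23.1 and 31.1 TPM while SKF 1 was at 48.0, above every vehicle library; without SKF 1 the estimate was -0.47 (adjusted p = 0.894). Col5a1 (0.05, -0.25 to 0.34), Col6a1 (0.00, -0.21 to 0.22), Col12a1 (-0.02, -0.28 to 0.24) and Col16a1 (-0.08, -0.27 to 0.10) had intervals within 1.5-fold. Those of Col8a1 (-0.43, -1.15 to 0.29) and Col22a1 (-0.58, -1.69 to 0.53) reached past 2-fold.

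SKF was also compared with normal control; this comparison shares the normal control libraries with the first and the SKF libraries with the second. At the same threshold 13 members were higher and 10 lower, beside 50.2% of all genes called, 25.5% higher and 24.7% lower. On the TPM scale the split was 17 higher and 7 lower of 38 members, beside 4996 higher and 2296 lower of 15280 genes. Col4a1 was 1.32 ± 0.07 higher (adjusted p = 1.06e-14), Col12a1 1.97 ± 0.14 higher, Col6a3 1.66 ± 0.15 higher and Col8a1 1.63 ± 0.38 higher, and Col11a2 was 1.87 ± 0.14 lower (adjusted p = 2.78e-11) and Col25a1 1.37 ± 0.19 lower. Col3a1 (0.43 ± 0.20, adjusted p = 0.0772), Col5a3 (0.17 ± 0.10, adjusted p = 0.136), Col13a1 (0.43 ± 0.24, adjusted p = 0.144) and Col20a1 (0.24 ± 0.11, adjusted p = 0.0669) passed in vehicle and not here, and Col9a3 passed here (-0.67 ± 0.20, adjusted p = 0.00731) and not in vehicle. For each of these 5, the outcome in SKF against normal control changed in some setting. Without normal control 4, Col3a1 (0.54, adjusted p = 0.0254), Col13a1 (0.58, adjusted p = 0.0442) and Col20a1 (0.27, adjusted p = 0.0459) passed; Col3a1 also passed without normal control 7 (adjusted p = 0.0344) and by DESeq2 (adjusted p = 0.0453), and Col20a1 without normal control 2, vehicle 1 or SKF 3 (adjusted p = 0.0492, 0.0383 and 0.0443) and with only these groups fitted (adjusted p = 0.0482). On log2(TPM + 1) Col3a1, Col5a3, Col13a1 and Col20a1 passed (adjusted p from 0.0201 to 0.0430) and Col9a3 did not (-0.49, adjusted p = 0.0536). The direct test of SKF against vehicle found no difference for these 5 at the threshold (adjusted p from 0.937 to 0.985), so none is shown to differ between SKF and vehicle.

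Genes that act on collagen were read from lists chosen by role. Beside their counts stand 54.0% of all genes tested called in vehicle against normal control, 26.9% higher and 27.1% lower. Of 19 genes for folding and modification, 14 were higher in vehicle and 2 lower, with a median of 0.55; P4hb, a subunit of prolyl hydroxylase, rose by 0.95 ± 0.06, Fkbp10 by 1.17 ± 0.10, and Serpinh1, the collagen chaperone HSP47, by 1.31 ± 0.11. Serpinh1 went from a median of 64.5 to 153 TPM. Of 6 procollagen trimming genes, 2 were higher (the proteinase Bmp1 0.85 ± 0.09 and its enhancer Pcolce 0.85 ± 0.20) and none was lower; Adamts3 (-0.32 ± 0.15) did not pass. Of 6 crosslinking genes, 5 were higher and none lower, with a median of 1.13: the transglutaminase Tgm2 rose by 2.06 ± 0.12, and the lysyl oxidase relatives Loxl2 by 0.94 ± 0.15 and Loxl4 by 1.60 ± 0.26.

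Of 10 fibril-binding proteins 4 were higher and 2 lower, where 26.9% of all genes were higher and 27.1% lower. Fibronectin (Fn1) rose by 2.80 ± 0.15, from a median of 14.1 to 118 TPM. Biglycan (Bgn) rose by 1.18 ± 0.10 and periostin (Postn) by 1.79 ± 0.27, while Sparc and Omd fell. Collagen receptors split into 3 higher and 3 lower of 8, with Oscar at 2.75 ± 0.23, the integrin chain Itgb1 at 0.80 ± 0.08 and the endocytic receptor Mrc2 at -0.69 ± 0.14. Breakdown enzymes were higher in 6 of 8 and lower in none, among them the cathepsins Ctsb (0.80 ± 0.06) and Ctsl (0.73 ± 0.06) and the gelatinase Mmp9 (2.69 ± 0.36). Of 14 basement membrane partners 6 were higher and 2 lower, a share called that is near the 54.0% of all genes. The laminin chains Lamc1 and Lama4 rose by 0.96 ± 0.07 and 0.65 ± 0.08, and Lamc3 fell by 1.51 ± 0.18. TGF-beta, a growth factor that raises collagen transcription in fibroblasts, had 4 of its 5 listed ligands and readouts higher and none lower, with Tgfbi at 2.02 ± 0.19, Tgfb1 at 1.57 ± 0.17 and Ccn2 at 0.82 ± 0.11. None of these 8 lists had a gene past the threshold in SKF against vehicle, as in the whole table.

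**Figure D5:**
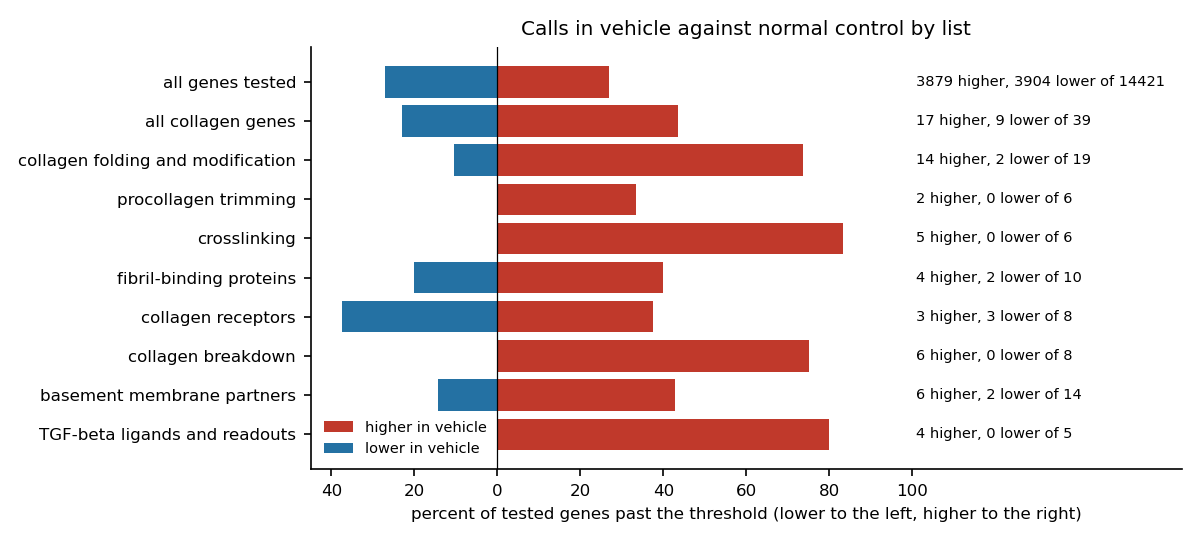
Percent of tested genes called higher (red, to the right) and lower (blue, to the left) in vehicle against normal control, for all genes, the collagen genes and 8 lists of genes that act on collagen. All genes show 3879 higher and 3904 lower, whereas folding (14 and 2), crosslinking (5 and 0), breakdown (6 and 0) and TGF-beta genes (4 and 0) lie mostly to the right.

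Markers of fibroblasts, macrophages, astrocytes and oligodendrocyte precursors differed between vehicle and normal controls as well. Their counts stand beside 26.9% of all genes tested called higher and 27.1% called lower. Of 11 fibroblast and meninges markers 2 were higher in vehicle (Crabp2, 1.12, being first by p) and 3 lower (among them Slc22a8, -1.13, and Slc6a13, -1.42), with sums of 73.5 to 341 TPM in normal controls, 129 to 266 in vehicle and 89.3 to 204 in SKF. All 8 macrophage markers were higher, with sums of 29.4 to 45.5 TPM in normal controls, 292 to 475 in vehicle and 220 to 420 in SKF; Msr1 was at 0 to 0.249 TPM in normal controls and 29.4 to 47.5 in vehicle, and Cd14 and Fcgr2b rose by 4.85 and 3.46. Among 6 astrocyte markers Gfap was higher (2.46) and 5 were lower, among which Slc1a2 fell by 1.00 and Gja1 by 0.79, with sums of 1520 to 1862 TPM in normal controls and 2862 to 4325 in vehicle. Of 6 oligodendrocyte precursor markers 4 were lower, led by Gpr17 (-1.54), Pdgfra (-0.53) and Olig1 (-0.57), with sums of 418 to 654 and 324 to 477 TPM. The part of these cell types in the collagen values was not tested.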

How the data were processed

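The deposited tables were the authors' whole-number counts of reads and the authors' TPM, for the same genes in 24 samples; the build, per the submitters' processing notes, was mRatBN7.2. Not given in the sources used here are the aligner, the counter and whether strand was used, so reads of overlapping or near-identical genes could be shared. The deposited counts entered edgeR 4.0.16 in R 4.3.3 (TMM, filterByExpr by group, robust quasi-likelihood F test) with all 24 libraries in 1 fit (21 residual degrees of freedom). P-values were adjusted over the 14421 genes tested by the Benjamini-Hochberg method, with calls at 0.05; fold changes are log2 with the SE taken from the F statistic. Levels are the authors' deposited TPM, given as lowest, median and highest of 8. Groups came from sample titles. Alternatives used DESeq2 1.42.0, limma 3.58.1, other filters and scalings, log2(TPM + 1) or log2(TPM + 0.1), a replicate block, and fits without single libraries. The script was tested on simulated counts. The members and lists were chosen with earlier results of these data known. Full values were given to a fixed set of chains, to members called with at least a 2-fold change in vehicle, and to the 5 members with the smallest p in SKF against vehicle; the 3 genes with the smallest p were named in each other list, and 1 gene of the TGF-beta list is not reported here.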

Additional observations from a re-analysis of the deposited data

Results flagged for a closer look

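In 10 of the 117 sets of 8 libraries (39 collagen genes in 3 groups), 1 library lay further from the rest than Dixon's 95% critical value allows; chance gives about 1 in 20. Levels here are log2 CPM. Vehicle 5 was lowest for Col4a1 (7.486, or 74.9 TPM) and for its divergent neighbour Col4a2 (7.159, or 53.3 TPM), and normal control 4 was highest in its group for Col4a1 (6.575, or 36.7 TPM). SKF 1 was highest for Col3a1 (6.4, or 48.0 TPM) and for Col5a3 (6.717, or 46.6 TPM). Col9a2 was lowest in normal control 6 (3.36) and, within its group, in vehicle 1 (2.562). Vehicle 4 was lowest for Col2a1 (0.937, from 17 counts), vehicle 2 for Col6a6 (1.058, from 19 counts) and SKF 5 for Col18a1 (4.777).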

How the results depend on the processing

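The counts of collagen genes called were within 1.5 times those reported under all alternatives but one pair: in SKF against normal control, 6 rather than 10 members were lower on log2(TPM + 0.1), and 6 on log2(TPM + 1) without a filter. Leaving out single libraries gave 15 to 18 higher and 7 to 11 lower in vehicle against normal control, 13 to 16 and 10 in SKF against normal control, and 0 in SKF against vehicle. Estimates near 0 changed sign: Col24a1 in vehicle against normal control was 0.045 on log2(TPM + 1) with or without a filter, 0.048 on log2(TPM + 0.1), 0.0069 without normal controls 4 and 6, and ran from -0.13 to 0.059 without single libraries, and Col8a2 ran from -0.031 (without vehicle 2) to 0.34. In SKF against vehicle, Col6a1 was -0.0015 by DESeq2, -0.0013 with RLE size factors, -0.0002 with only the 2 groups, -0.027 by voom, -0.020 on log2(TPM + 1) with or without a filter, -0.021 on log2(TPM + 0.1), and from -0.052 to 0.074 without single libraries; Col5a1 ran from -0.026 to 0.14 and Col5a2 from -0.077 to 0.0061 in such fits. The cause was not tested. Leaving out normal controls 4 and 5 together, chosen after seeing the data, gave 17 higher and 6 lower and lost Col2a1, Col5a2 and Col22a1. Replicate numbers did not pair the samples (24 correlations from -0.241 to 0.0783; 0 of 24 libraries closest to their own number); with a replicate block 16 members were higher and 8 lower in vehicle, Col20a1 (adjusted p = 0.0711) and Col22a1 (0.0788) being lost, and the counts in the other comparisons were 13 higher and 10 lower for SKF against normal control and 0 for SKF against vehicle. Depth limits Col17a1, Col22a1 and the 3 genes under the filter.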

Other observations

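Several collagen genes lie next to each other in the RefSeq annotation (build GRCr8), with no protein-coding gene between them. Col4a1 and Col4a2 both rose in vehicle against normal control (1.51 and 0.73), as did Col6a1 and Col6a2 (0.76 and 1.06). Col3a1 and Col5a2, which also adjoin, were called in opposite directions (0.77 and -0.23), the second not on the TPM scale. Col9a1 and Col19a1 did not pass (0.54 and 0.29). These pairs are values side by side, with no test.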
